A study of Mus musculus with 9 samples.

Results

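The nuclear genes of oxidative phosphorylation were followed in the aorta of atherosclerotic mice. They were taken by symbol from the array's gene annotation: every symbol that starts with Nduf, Uqcr or Atp5, the succinate dehydrogenase genes Sdha to Sdhd, and the cytochrome c oxidase subunits Cox4 to Cox8. This gave 90 of the 18193 genes measured. Of these, 36 carry names of complex I subunits, 4 of complex II, 8 of complex III, 17 of complex IV and 17 of complex V (ATP synthase), and 8 are complex I assembly factors (Ndufaf genes). No measured level was used to choose them, but each gene was read from the brightest of its probe sets that match 1 gene. All mice were female APOE-/- mice on a C57BL/6 background, which lack mouse apolipoprotein E, have an age of 8 weeks in the labels (at which step is not said) and ate a diet with 0.2% cholesterol and 10% coconut oil for 30 weeks. The groups differed in 1 tail-vein injection, given 10 days before the aortas were taken: HDAd-gE3, a helper-dependent adenovirus that expresses human apolipoprotein E3; HDAd-0, the empty vector; or PBS, the vehicle. Each of the 9 arrays, 3 per group, measured RNA pooled from 3 aortas dissected from the sinus to the arch, so that the spread between arrays is a spread between pools.

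Oxidative phosphorylation makes ATP on the inner mitochondrial membrane. Complex I (NADH dehydrogenase) and complex II (succinate dehydrogenase) pass electrons to ubiquinone, complex III passes them to cytochrome c, complex IV (cytochrome c oxidase) passes them to oxygen, and complex V makes ATP from the proton gradient. Most subunits are encoded in the nucleus and made in every cell with mitochondria. A few subunits of complex IV exist in forms that differ between tissues: Cox6a2 in heart and skeletal muscle, Cox7a1 and Cox8b in heart, skeletal muscle and brown fat. Heart muscle at the aortic root and the brown fat around the thoracic aorta are both rich in mitochondria.

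RefSeq (GRCm38.p6) gave a promoter window, from 250 bases before the transcription start to 50 after it, for 74 of the 90 genes. The windows were searched on both strands for 4 short motifs of factors known to regulate respiratory genes. The letters GCGCATG (a core of the NRF1 site) occurred in 14 of the 74 windows (18.9%), against 4.89% of the windows of 17492 protein-coding genes. CCGGAAG (ETS factors such as GABP) occurred in 18 (24.3%, against 11.9%), AAGGTCA (estrogen-related receptors) in 8 (10.8%, against 4.08%) and AAGATGG (YY1) in 10 (13.5%, against 6.37%). In the windows of 64 mitochondrial ribosome genes the same motifs occurred in 8 (12.5%), 21 (32.8%), 4 (6.25%) and 13 (20.3%). A match is a description of the letters only. Below are 4 windows of genes that followed the mean of all 90 genes closely over the arrays. Atp5l, a small membrane subunit of ATP synthase, at chr9:44920693-44920992 (- strand), and Uqcr11, the smallest subunit of complex III, at chr10:80406772-80407071 (- strand), are widely expressed subunits. Cox7a1, at chr7:30183921-30184220 (+ strand), and Cox8b, at chr7:140900397-140900696 (- strand), are muscle and brown fat forms. Capitals mark matches to the 4 motifs on either strand, none of which overlap one another in these windows. Atp5l held 4 matches and Uqcr11 2, and the windows of Cox7a1 and Cox8b held 0. A window without a match was not particular to the muscle and brown fat forms. The windows of Cox7a2 (the common partner of Cox7a1), Uqcr10 and Ndufa12 also held 0.
Atp5l: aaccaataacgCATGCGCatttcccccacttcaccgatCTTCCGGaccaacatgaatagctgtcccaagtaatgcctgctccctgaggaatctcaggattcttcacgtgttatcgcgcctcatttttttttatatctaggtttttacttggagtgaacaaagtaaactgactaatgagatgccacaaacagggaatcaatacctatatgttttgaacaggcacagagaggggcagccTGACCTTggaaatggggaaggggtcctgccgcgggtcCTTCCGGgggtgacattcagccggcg
Uqcr11: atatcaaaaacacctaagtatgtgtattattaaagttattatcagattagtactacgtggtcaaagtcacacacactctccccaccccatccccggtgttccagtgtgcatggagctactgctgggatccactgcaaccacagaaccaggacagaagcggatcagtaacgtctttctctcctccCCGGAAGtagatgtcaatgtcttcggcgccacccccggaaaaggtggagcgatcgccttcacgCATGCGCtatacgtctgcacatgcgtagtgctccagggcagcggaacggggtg
Cox7a1: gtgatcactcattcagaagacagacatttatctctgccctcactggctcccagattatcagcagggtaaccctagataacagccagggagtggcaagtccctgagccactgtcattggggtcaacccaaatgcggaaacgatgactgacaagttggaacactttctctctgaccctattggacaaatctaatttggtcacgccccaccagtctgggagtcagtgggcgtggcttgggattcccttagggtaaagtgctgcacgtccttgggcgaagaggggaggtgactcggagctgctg
Cox8b: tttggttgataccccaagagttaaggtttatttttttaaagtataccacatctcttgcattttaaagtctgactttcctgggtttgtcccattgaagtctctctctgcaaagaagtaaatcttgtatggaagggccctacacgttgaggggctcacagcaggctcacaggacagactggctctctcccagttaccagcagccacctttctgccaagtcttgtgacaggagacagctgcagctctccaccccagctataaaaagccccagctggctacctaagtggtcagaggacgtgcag

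The deposited values are log2 signals after RMA (robust multi-array average, which makes the arrays' distributions alike). No 2 arrays correlated below 0.991 over all probe sets. Among the 90 genes 75 had a mean log2 signal above 11, and 3 (Cox7b2, Cox8c and Ndufb4) lay under 6, where this array measures little. Signals of different genes also depend on their probes and are not set against each other here. The brightest genes moved least: the 32 with a mean of 13 or more had a median range over the 9 arrays of 0.269, against 0.380 for the 55 with a mean from 6 to 13. All 9 smooth muscle markers, the main muscle of the arterial wall, had a mean of at least 6, and so had 14 of 14 cardiac and 6 of 7 brown fat markers (Zic1 lay under it). HDAd-gE3 replicate 4 stood apart in the neutrophil list, at 1.44 relative to the mean of all arrays where the next array was at 0.521. HDAd-0 replicate 5 stood apart in the liver list, at 1.62 with the next array at 0.490. Without those 2 arrays none of the 90 genes was called in any comparison, and the mean was higher for 85 of 90 genes in HDAd-gE3 against HDAd-0, 74 in HDAd-gE3 against PBS and 12 in HDAd-0 against PBS.

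The 90 genes went up and down together from array to array, and this movement ran within the groups more than between them. Relative to its own mean over the 9 arrays, the average gene stood at 0.139, 0.042 and -0.077 (log2) on the HDAd-gE3 arrays (replicates 2, 3 and 4). It stood at 0.029, -0.176 and -0.003 on the HDAd-0 arrays (replicates 3, 4 and 5), and at 0.046, 0.046 and -0.047 on the PBS arrays (replicates 1, 3 and 4). HDAd-gE3 replicate 2 was the highest array and HDAd-0 replicate 4 the lowest, and the 3 groups overlapped. The arrays numbered 4 lay below 0 and those numbered 3 above 0 in all 3 groups. What a shared number stands for is not said in the labels, and its part in the movement was not tested. The group means were 0.035 ± 0.108 for HDAd-gE3, -0.050 ± 0.110 for HDAd-0 and 0.015 ± 0.054 for PBS (SD, n = 3 each). In whole tissue, fewer cells of a type and less RNA per cell cannot be told apart.

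**Figure D1:**
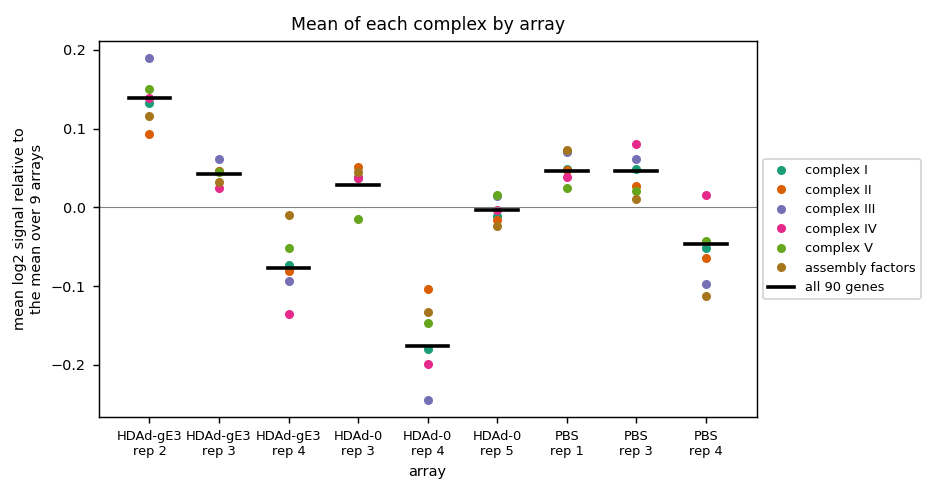
Mean log2 signal of each complex on each of the 9 arrays, relative to each gene's mean over all arrays; coloured points are the 5 complexes and the assembly factors and black bars the mean of all 90 genes. The bars reach 0.139 on HDAd-gE3 replicate 2 and -0.176 on HDAd-0 replicate 4, and on these 2 arrays all 6 gene groups lie on the same side of 0.

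Single genes showed the same order. HDAd-gE3 replicate 2 held the highest of the 9 values for 67 of the 90 genes, where it did so for 10.4% of all genes. HDAd-0 replicate 4 held the lowest value for 60 of them, against 14.8% of all genes, and 48 genes had both extremes there (2.72% of all genes). Within groups, that is after each group's mean was taken out, the mean correlation over all pairs of the 90 genes was 0.62, while over all pairs of the 18193 genes it was 0.012. The arrays share 1 normalization, and these are descriptions over 9 arrays with no test. The first principal component of the scaled values took 64.6% of the variance of the 90 genes. Differences between group means took a median of 21.4% of a gene's variance among the 90 and 33.6% among all genes. The movement was small in size: 71 of the 90 genes ranged over less than 0.5 on the log2 scale across the 9 arrays, and 1 gene, Cox6a2, over more than 1.

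**Figure D2:**
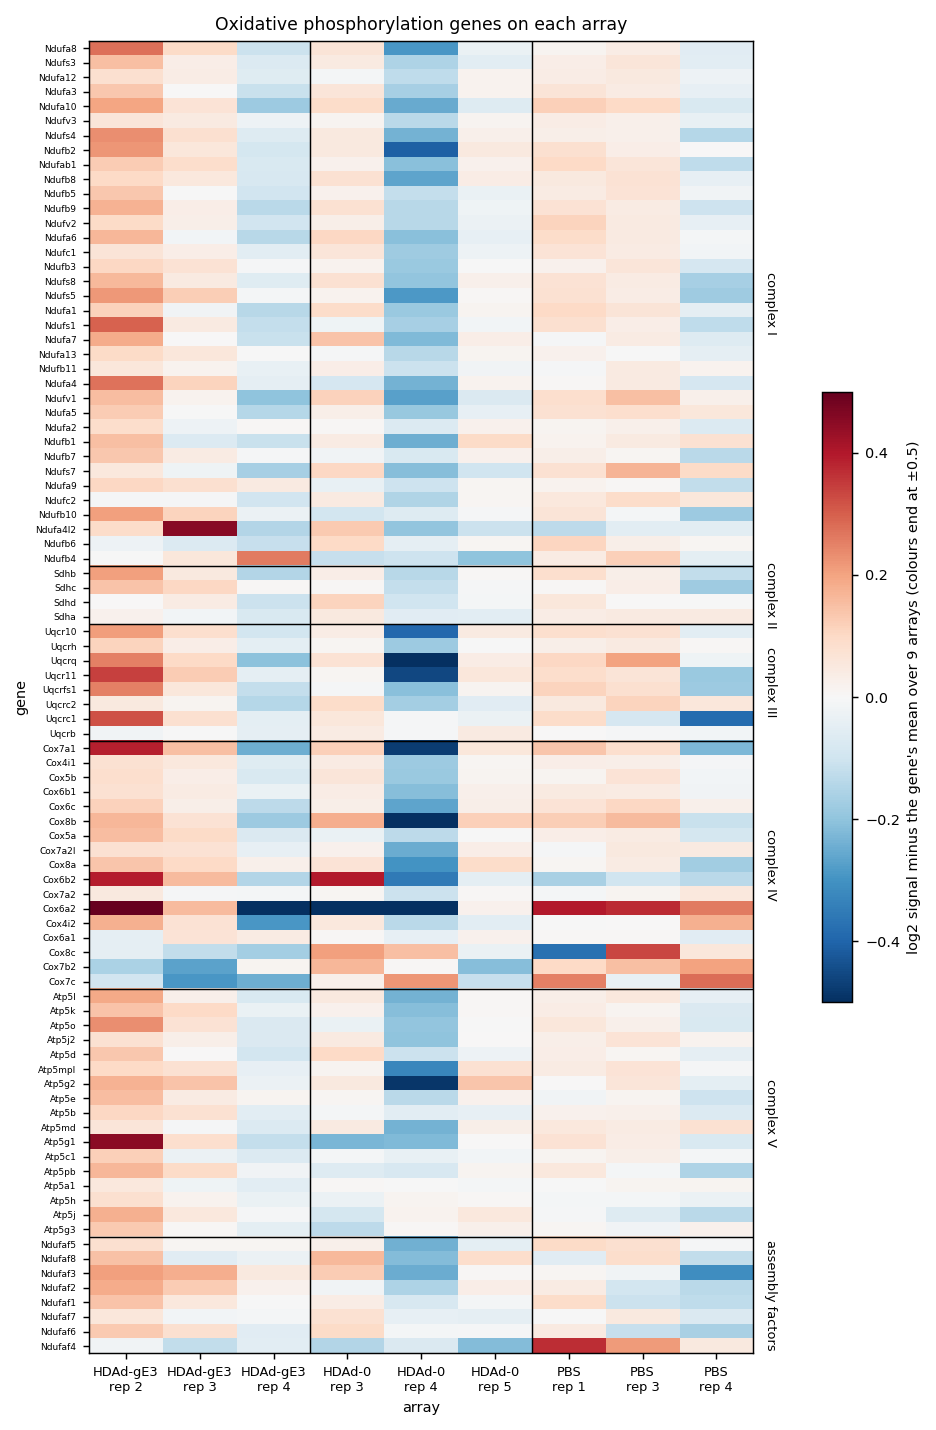
Heat map of the 90 genes (rows, by complex and then by correlation with the mean of all 90) on the 9 arrays (columns); colour is the log2 signal minus the gene's own mean, and colours end at ±0.5. The HDAd-gE3 replicate 2 column is red and the HDAd-0 replicate 4 column blue for most rows, with exceptions at the foot of each block such as Ndufb4, Uqcrb, Cox7c and Ndufaf4.

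The correlation of a gene with the mean of all 90 (of which it is a part) was above 0.8 for 52 genes. For 39 of these it was above 0.9. It was from 0.5 to 0.8 for 26 genes and under 0.5 for 12. In complex I the median correlation was 0.92 and the pairwise correlation within groups 0.75. Ndufa8, a subunit of the complex's membrane part, followed the mean most closely (r = 0.973), with signals of 12.18, 12.00 and 11.80 on the HDAd-gE3 arrays, 11.97, 11.61 and 11.87 on the HDAd-0 arrays and 11.92, 11.94 and 11.84 on the PBS arrays. HDAd-gE3 replicate 2 is its highest array and HDAd-0 replicate 4 its lowest. Ndufb4 followed it least (r = 0.073), from a probe set with a mean of 3.66. In complex III the pairwise correlation within groups was 0.79; Uqcr10 led with r = 0.970, and Uqcrb, which binds ubiquinone, had r = 0.157 and a range of 0.0925 over the 9 arrays. Complex II gave 0.70 within groups, from Sdhb, the iron-sulfur subunit (r = 0.927), to Sdha, the flavoprotein (r = 0.591). Complex V gave 0.63, from Atp5l (r = 0.986) to Atp5g3, 1 of 3 genes for the rotating c subunit (r = 0.325). The other c subunit genes, Atp5g1 and Atp5g2, had r = 0.782 and 0.864. The assembly factors, which help build complex I and are not part of it, gave 0.59, from Ndufaf5 (0.846) to Ndufaf4 (0.225).

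Atp5l read 12.70, 12.54 and 12.44 on the HDAd-gE3 arrays, 12.56, 12.28 and 12.52 on the HDAd-0 arrays and 12.55, 12.57 and 12.47 on the PBS arrays. Sdhb read 12.88, 12.72 and 12.52 on the HDAd-gE3 arrays, 12.70, 12.53 and 12.67 on the HDAd-0 arrays and 12.75, 12.70 and 12.55 on the PBS arrays. Both were highest on HDAd-gE3 replicate 2; Atp5l was lowest on HDAd-0 replicate 4 and Sdhb on HDAd-gE3 replicate 4, and the groups overlapped for both. Uqcr10 read 12.66, 12.53 and 12.36 on the HDAd-gE3 arrays, 12.48, 12.06 and 12.49 on the HDAd-0 arrays and 12.53, 12.52 and 12.40 on the PBS arrays, highest on HDAd-gE3 replicate 2 and lowest on HDAd-0 replicate 4. Ndufaf5 read 9.69, 9.62 and 9.62 on the HDAd-gE3 arrays, 9.64, 9.37 and 9.56 on the HDAd-0 arrays and 9.70, 9.69 and 9.60 on the PBS arrays, highest on PBS replicate 1. Averaged by complex, HDAd-gE3 replicate 2 stood highest in complex III (0.190) and lowest in complex II (0.093), and HDAd-0 replicate 4 ran from -0.245 in complex III to -0.103 in complex II.

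Complex IV was the least uniform, at 0.39 within groups. Cox7a1 (r = 0.983) and Cox4i1, the common form of subunit 4 (r = 0.947), followed the mean, while Cox7c (r = -0.311), Cox7b2 (-0.218) and Cox8c (-0.149) had negative correlations, the last 2 from probe sets under 6. The Cox7c probe set used here had a mean of 8.43, and a second one for the same gene, with a mean of 5.17, correlated with it at 0.39. Of the 51 genes with more than 1 probe set, the brightest and the second correlated above 0.5 over the arrays for 40. For some genes the probe sets differed (named after their values were seen). The second probe set of Uqcrb had r = 0.79 with the mean of all 90 genes, and that of Sdha r = 0.89. Those of Cox6a1, Ndufb6 and Atp5h had r = 0.82, 0.93 and 0.83, where the brightest had 0.118, 0.355 and 0.465. In the other direction, those of Ndufb8 and Atp5c1 had r = 0.23 and 0, where the brightest had 0.944 and 0.773.

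HDAd-gE3 and HDAd-0 both carry a vector, and only HDAd-gE3 carries the transgene. None of the 90 genes passed an adjusted p of 0.05 (limma over all 9 arrays, Benjamini-Hochberg over all genes, smallest adjusted p among the 90 = 0.311), where 0.00550% of all genes passed. At an unadjusted p under 0.05 there was 1 higher gene among the 90, Ndufb4, against 3.46% of all genes, and 0 lower ones, against 9.40%. The group mean was higher with HDAd-gE3 for 81 of 90 genes (38.3% of all genes), with a median difference of 0.078 where the median of all genes was -0.040; the median SE of 1 gene was 0.084. The same count was 52 of 90 with each array centred on its median, where the median was 0.013 and that of all genes -0.104. It was 55 without HDAd-0 replicate 4 (median 0.010, all genes -0.039). It was 62 without HDAd-gE3 replicate 2 (0.033, all genes -0.037) and 85 without HDAd-gE3 replicate 4 (0.130, all genes -0.046). The genes move together, so this count does not rest on 90 separate observations. The arrays of the 2 groups did not overlap for 2 higher genes, Ndufa9 and Ndufb4 (4.25% of all genes), and 1 lower gene, Cox8c (12.0%).

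By complex, the median difference of HDAd-gE3 from HDAd-0 was 0.069 in complex I (34 of 36 higher), 0.033 in complex II (2 of 4), 0.120 in complex III (7 of 8), 0.074 in complex IV (14 of 17), 0.081 in complex V (16 of 17) and 0.080 among the assembly factors (8 of 8). Ndufb4, an accessory subunit of complex I, read 3.66, 3.72 and 3.93 on the HDAd-gE3 arrays and 3.55, 3.56 and 3.46 on the HDAd-0 arrays, with no overlap, but from a probe set near the floor. Its difference was 0.25 ± 0.08 (SE; limma, adjusted p = 0.311). Atp5g1 read 12.99, 12.63 and 12.42 on the HDAd-gE3 arrays and 12.31, 12.32 and 12.54 on the HDAd-0 arrays. The groups overlapped because HDAd-0 replicate 5 lay above HDAd-gE3 replicate 4, and the difference was 0.29 ± 0.14 (SE; limma, adjusted p = 0.417). Ndufa4, named for complex I and now placed with complex IV, differed by 0.21 ± 0.10 (adjusted p = 0.398). Uqcr11, whose promoter is printed above, read 12.30, 12.08 and 11.91 with HDAd-gE3 and 11.97, 11.50 and 12.01 with HDAd-0. Its difference was 0.27 ± 0.16 (limma, adjusted p = 0.487), and the low value came from HDAd-0 replicate 4. In the other direction Cox7c differed by -0.26 ± 0.11, Ndufb6 by -0.09 ± 0.06 and Cox8c by -0.22 ± 0.16 (limma, adjusted p = 0.394, 0.545 and 0.571). With the probe set of largest spread in place of the brightest, the difference was 0.017 for Cox7c and 0.062 for Ndufb6. That probe set had a mean of 5.17 for Cox7c, near the floor, and 11.76 for Ndufb6.

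The comparison of HDAd-gE3 with PBS sets the transgene vector against the vehicle. None of the 90 genes passed (limma, smallest adjusted p = 0.244), where 0.126% of all genes passed (0.0770% higher and 0.0495% lower). Without adjustment, 0 were higher (5.94% of all genes) at p under 0.05 and 3 lower, Cox7c, Ndufaf4 and Cox7b2 (7.27%). The mean was higher for 54 of 90 genes (45.4% of all genes), with a median of 0.022 where that of all genes was -0.015. With each array centred on its median it was higher for 36 of 90 (median -0.017, all genes -0.054). Without HDAd-gE3 replicate 2 it was higher for 32 of 90 (median -0.031, all genes -0.016). Arrays did not overlap for 3 higher genes, Atp5e, Ndufa9 and Ndufaf3 (10.8% of all genes), and 7 lower genes (13.2%). Cox7c read 8.34, 8.14 and 8.19 with HDAd-gE3 and 8.69, 8.40 and 8.72 with PBS, a difference of -0.38 ± 0.11 (limma, adjusted p = 0.244). The 2 groups did not overlap. Cox7b2, near the floor, differed by -0.29 ± 0.11 (limma, adjusted p = 0.311). Ndufaf2, Ndufaf3 and Atp5j (a stalk subunit of ATP synthase) had the smallest p among higher genes, at 0.17 ± 0.08, 0.25 ± 0.12 and 0.14 ± 0.07 (limma, adjusted p = 0.385, 0.403 and 0.433).

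HDAd-0 against PBS compares the empty vector with the vehicle. The 3 comparisons share arrays and are not independent of one another. None of the 90 genes passed (limma, smallest adjusted p = 0.178), where 0.0660% of all genes passed (0.0495% higher and 0.0165% lower). Without adjustment, at p under 0.05, 0 were higher (8.50% of all genes) and 2 lower, Ndufaf4 and Cox6a2 (4.39%). The mean was higher with HDAd-0 for 17 of 90 genes (57.6% of all genes), with a median of -0.062 where that of all genes was 0.024. The count was 28 with each array centred on its median (median -0.036, all genes 0.05), and 52 without HDAd-0 replicate 4, where the median was 0.009. Arrays did not overlap for 0 higher genes (11.8% of all genes) and 6 lower genes (7.00%). The medians of HDAd-0 against PBS were -0.067 in complex I (2 of 36 higher), -0.025 in complex II (1 of 4), -0.101 in complex III (2 of 8), -0.072 in complex IV (3 of 17), -0.041 in complex V (3 of 17) and 0.024 among the assembly factors (6 of 8). The smallest p among higher genes belonged to Ndufaf6, Uqcrc1 (a core subunit of complex III) and Atp5j, at 0.10 ± 0.08, 0.13 ± 0.13 and 0.06 ± 0.07 (limma, adjusted p = 0.602, 0.698 and 0.746). Ndufb4 differed by -0.18 ± 0.08 (limma, adjusted p = 0.408).

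**Figure D3:**
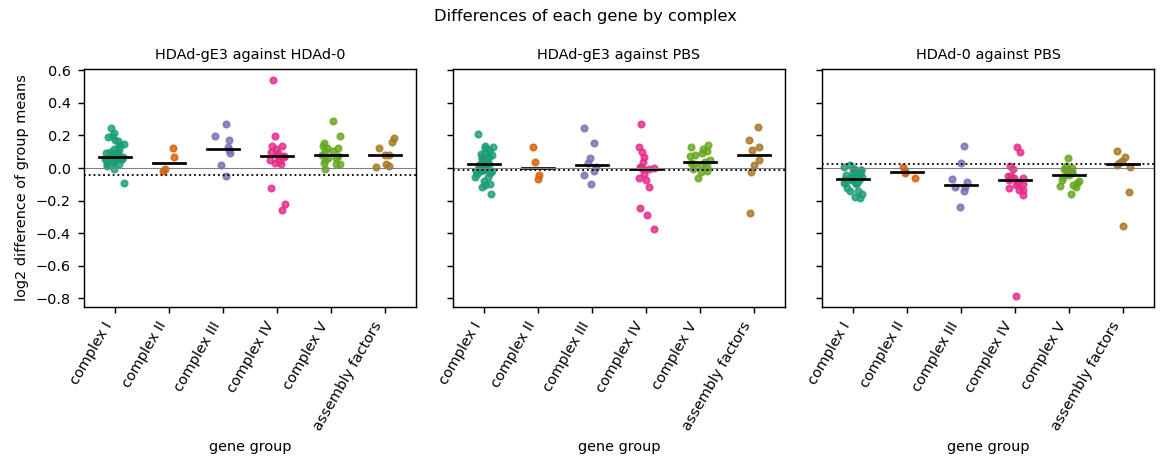
Log2 difference of group means for each of the 90 genes in the 3 comparisons, by complex (points), with the median of each gene group (black bar) and the median of all 18193 genes (dotted line). In HDAd-gE3 against HDAd-0 most points lie above the dotted line at -0.040, and no point passed the adjusted threshold; the outlying complex IV point at 0.54 in HDAd-gE3 against HDAd-0 and at -0.78 in HDAd-0 against PBS is Cox6a2.

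Ndufaf4, an assembly factor for complex I, was the gene of the 90 with the largest between-group share of variance (75.7%). It read 10.41, 10.31 and 10.38 on the HDAd-gE3 arrays, 10.29, 10.36 and 10.22 on the HDAd-0 arrays and 10.80, 10.65 and 10.48 on the PBS arrays. All 6 vector arrays lay below all 3 PBS arrays, and the 2 vector groups overlapped. The difference from PBS was -0.28 ± 0.09 with HDAd-gE3 and -0.35 ± 0.09 with HDAd-0 (limma, adjusted p = 0.250 and 0.178). With array weights the first gave an adjusted p of 0.045 in a fit that called 804 genes in all, against 23 without weights. Its second probe set correlated with the first at 0.75.

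The forms of complex IV subunits that differ between tissues did not move alike. Cox6a2, the heart and skeletal muscle form of subunit 6a, read 12.68, 12.02 and 11.19 on the HDAd-gE3 arrays, 11.12, 11.27 and 11.89 on the HDAd-0 arrays and 12.26, 12.24 and 12.13 on the PBS arrays. Its range of 1.56 (2.95-fold) was the widest of the 90 genes, the HDAd-gE3 arrays lay on both sides of the PBS arrays and overlapped the HDAd-0 arrays, and the HDAd-0 arrays all lay below the PBS arrays. HDAd-gE3 differed from HDAd-0 by 0.54 ± 0.34 and from PBS by -0.24 ± 0.34, and HDAd-0 differed from PBS by -0.78 ± 0.34 (limma, adjusted p = 0.523, 0.799 and 0.382). The second Cox6a2 probe set correlated with the first at 0.99. Cox6a1, the common form of the same subunit, had a mean of 13.47, among the brightest genes, which moved least. It ranged over 0.12 and had r = 0.12 with the mean of all 90 genes. Its second probe set, with a mean of 12.61, had r = 0.82 with that mean and 0.54 with the first, so the 2 probe sets differ.

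Cox7a1 read 12.45, 12.21 and 11.82 on the HDAd-gE3 arrays, 12.18, 11.59 and 12.12 on the HDAd-0 arrays and 12.20, 12.14 and 11.84 on the PBS arrays. It ranged over 0.86 and its common partner Cox7a2 over 0.16, both with the lowest value on HDAd-0 replicate 4. Cox7a2 had a mean of 13.74, among the brightest genes, which moved least. Cox8b ranged over 0.71, from 12.48 on HDAd-0 replicate 4 to 13.18 on HDAd-0 replicate 3, and its partner Cox8a over 0.44. Neither Cox7a1 nor Cox8b separated the groups: HDAd-gE3 against HDAd-0 gave 0.20 ± 0.20 and 0.09 ± 0.19 (limma, adjusted p = 0.694 and 0.850). Cox4i2, the form known from lung and from oxygen sensing, ranged from 7.92 on HDAd-gE3 replicate 4 to 8.39 on HDAd-gE3 replicate 2. Cox6b2, known from testis, ranged over 0.75 with r = 0.75, against 0.29 and r = 0.93 for Cox6b1, also among the brightest genes (mean 13.59). Ndufa4l2, a paralogue of Ndufa4 that is induced by hypoxia in other settings, was highest on HDAd-gE3 replicate 3 (8.83) and had r = 0.52.

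**Figure D4:**
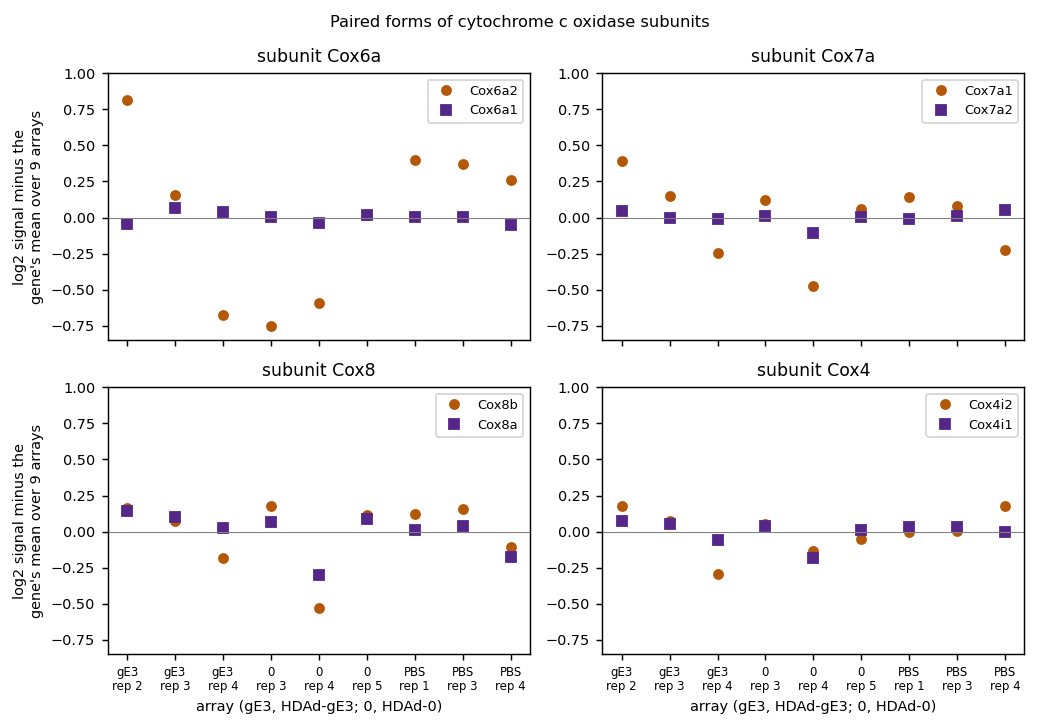
Log2 signal minus the gene's own mean on each of the 9 arrays for 4 pairs of complex IV subunit forms, with the form of restricted tissues as circles and the common form as squares. Cox6a2 spans 1.56 with low points on HDAd-gE3 replicate 4 and HDAd-0 replicates 3 and 4, while the low points of Cox7a1 and Cox8b are on HDAd-0 replicate 4.

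Over the 9 arrays Cox6a2 correlated at 0.98 with the mean of the 14 cardiac muscle markers and at 0.44 with that of the 7 brown fat markers. Cox7a1 correlated at 0.64 with the cardiac and 0.92 with the brown fat markers, and Cox8b at 0.53 and 0.84. The median gene of the 90 had r = 0.60 with the cardiac and 0.81 with the brown fat markers. Of the c subunit genes, Atp5g1 gave 0.88 and 0.68, and Atp5g3 0.75 and 0.15. Skeletal muscle markers, 4 of 13 of which had a mean under 6, gave -0.07 with Cox6a2 and -0.22 with Cox7a1. At an unadjusted p under 0.05 (limma) 8 of the 13 were higher in HDAd-0 against PBS (8.50% of all genes) and 0 lower (4.39%). In HDAd-gE3 against HDAd-0 0 were higher (3.46%) and 7 lower (9.40%), and in HDAd-gE3 against PBS 0 higher (5.94%) and 1 lower (7.27%). None passed the adjusted threshold. The list gave r = -0.32 with the mean of the 90 genes (-0.01 within groups).

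The mean of the 90 genes followed the brown fat list with Pearson's r = 0.90 and Spearman's rho = 0.90, r = 0.92 within groups and 0.88 without the 2 arrays farthest out (HDAd-0 replicate 4 and PBS replicate 4). It followed the cardiac list less closely (r = 0.72, rho = 0.77, 0.70 within groups, 0.87 without HDAd-0 replicates 3 and 4). The cardiac list stood at 0.789, 0.262 and -0.476 on the HDAd-gE3 arrays, -0.793, -0.762 and -0.062 on the HDAd-0 arrays and 0.399, 0.361 and 0.282 on the PBS arrays. Its genes did not all move alike (those here were named after their values were seen). Sln (7.56) and Nppa (10.64) were lowest on HDAd-0 replicate 4, where Myl2 read 13.19 and Myl3 13.15. Myl2 (11.42) and Myl3 (11.80) were lowest on HDAd-gE3 replicate 4. Their r with the mean of the 90 genes ran from 0.34 (Myl2) to 0.79 (Nppa). The brown fat list stood at 0.306, 0.138 and -0.002 on the HDAd-gE3 arrays, 0.101, -0.425 and -0.017 on the HDAd-0 arrays and 0.150, 0.053 and -0.305 on the PBS arrays. Its mean signal ran from 10.07 to 10.38 in HDAd-gE3 pools, 9.65 to 10.17 in HDAd-0 pools and 9.77 to 10.22 in PBS pools, and that of the cardiac list from 11.76 to 13.02 in HDAd-gE3 pools, 11.44 to 12.17 in HDAd-0 pools and 12.52 to 12.63 in PBS pools. None of the 7 brown fat or 14 cardiac markers passed the limma threshold in any comparison. In HDAd-0 against PBS the mean was higher for 0 of 14 cardiac markers (median -0.791). Without adjustment 11 of them had p under 0.05 and a lower mean with HDAd-0, as did 4.39% of all genes. In HDAd-gE3 against HDAd-0 the cardiac median was 0.503, with 6 higher at that p (3.46% of all genes) and 0 lower (9.40%). In HDAd-gE3 against PBS it was -0.170, with 0 in either direction (5.94% of all genes higher and 7.27% lower). Of the brown fat markers, 2 were higher (3.46% of all genes) and 1 lower (9.40%) at that p in HDAd-gE3 against HDAd-0. In HDAd-gE3 against PBS 1 was higher (5.94%) and 0 lower (7.27%). In HDAd-0 against PBS 1 was higher (8.50%) and 1 lower (4.39%). Zic1, with a mean under 6, was the lower gene in HDAd-gE3 against HDAd-0 and the higher one in HDAd-0 against PBS. Within the brown fat list, Ucp1, the uncoupling protein that defines brown fat, had r = 0.74 with the mean of the 90 genes and Ppargc1a, a coactivator of mitochondrial biogenesis, r = 0.93, while Dio2 had r = 0.09 and Zic1, near the floor, -0.20 (named after their values were seen). Ucp1 read 13.49, 13.45 and 13.37 on the HDAd-gE3 arrays, 13.33, 12.70 and 13.16 on the HDAd-0 arrays and 13.22, 13.20 and 12.75 on the PBS arrays. The macrophage markers ran the other way (r = -0.74, and -0.89 within groups, but -0.03 without the 2 farthest arrays), so that relation rests on HDAd-0 replicate 4 and HDAd-gE3 replicate 2. Smooth muscle markers gave r = 0.11 (-0.38 within groups), white and general fat markers 0.52 (0.77 within groups) and endothelial markers -0.08 (0.86 within groups). Within groups the white and general fat list thus followed the 90 genes about as closely as the cardiac list did (0.70). Of the 7 endothelial markers Tie1 and Esam were higher with HDAd-0 than with PBS, by 0.572 ± 0.066 and 0.579 ± 0.072 (limma, adjusted p = 0.047 and 0.048), where 0.0495% of all genes passed as higher. In HDAd-gE3 against PBS all 7 had a higher mean, 4 of them at an unadjusted p under 0.05 (5.94% of all genes). In HDAd-gE3 against HDAd-0 1 of 7 had a higher mean, and 5 were lower at that p (9.40%). The part of these tissues in the movement of the 90 genes was not tested.

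**Figure D5:**
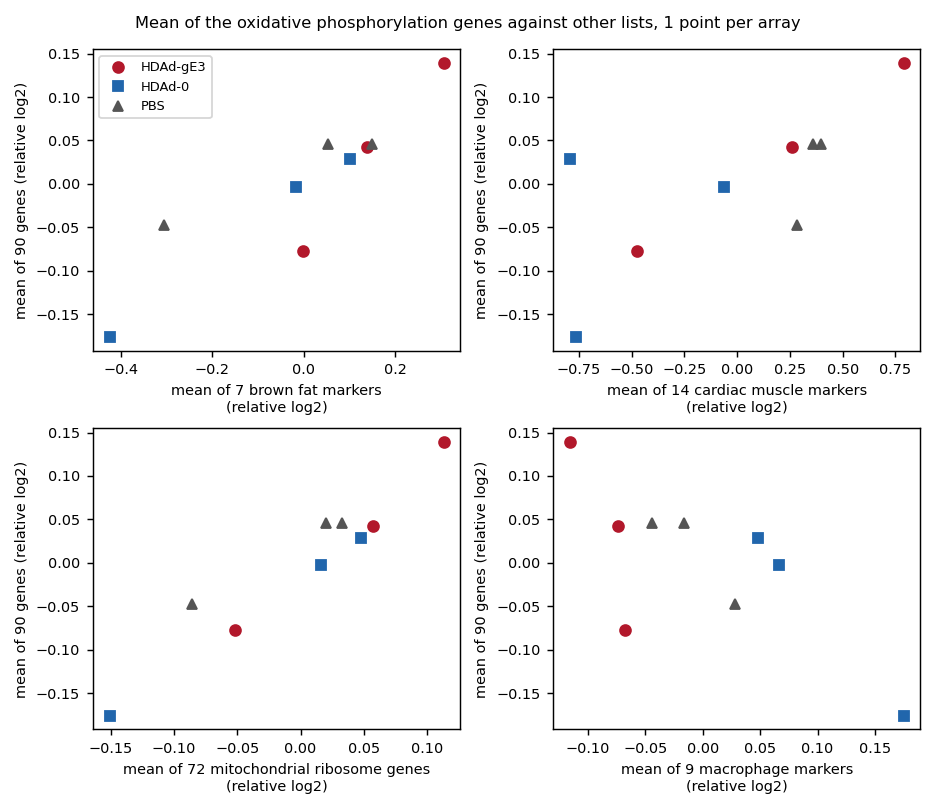
Mean of the 90 oxidative phosphorylation genes (vertical) against the mean of 4 other gene lists (horizontal), both in log2 relative to the mean over all arrays, with 1 point per array. Points climb with the brown fat (r = 0.90), cardiac (r = 0.72) and mitochondrial ribosome lists (r = 0.96) and descend with the macrophage list (r = -0.74).

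A sign of RNA quality moved as well. For the control transcripts Actb and Gapdh, the 3' signal exceeded the 5' signal (log2) by 0.735 ± 0.069 in HDAd-gE3 pools, 0.933 ± 0.163 in HDAd-0 pools and 0.866 ± 0.071 in PBS pools (SD, n = 3 each), and was largest on HDAd-0 replicate 4 (1.08). Its correlation with the mean of the 90 genes was -0.68 (rho = -0.58, -0.64 within groups, -0.47 without the 2 farthest arrays). With it as a covariate the median difference of HDAd-gE3 from HDAd-0 was -0.025 (all genes -0.022), with 33 of 90 genes higher, in place of 0.078 and 81. With the same covariate HDAd-gE3 against PBS gave -0.047 (all genes -0.009) with 27 of 90 higher, in place of 0.022 and 54. HDAd-0 against PBS gave -0.019 (all genes 0.019) with 30 of 90 higher, in place of -0.062 and 17. Its part in these results was not tested.

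Other mitochondrial gene lists covaried with the 90 genes over the arrays. The 72 measured mitochondrial ribosome genes correlated with the mean of the 90 at r = 0.96 (0.98 within groups). The 15 measured genes of the tricarboxylic acid cycle, which feeds complexes I and II, gave r = 0.94, the 9 electron carriers and feeders 0.92, 28 assembly factors with other names 0.91, 10 carriers and porins 0.90 and 14 genes of fatty acid oxidation 0.85. The 16 regulators of mitochondrial biogenesis gave r = 0.82 and the 17 measured glycolysis genes 0.78 (0.53 without the 2 farthest arrays). Some lists share genes with the brown fat markers: Ppargc1a is also among the biogenesis regulators and Ucp1 among the carriers and porins. Of the mitochondrial genome's own subunits 1, ND5 of complex I, was measured. Its correlation was -0.38 (-0.16 within groups, -0.02 without the 2 farthest arrays), and HDAd-0 differed from PBS by 0.18 ± 0.05 (limma, adjusted p = 0.218).

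None of these lists had a gene past the limma threshold in any comparison. In HDAd-gE3 against HDAd-0, where the mean was higher for 38.3% of all genes, it was higher for 53 of 72 mitochondrial ribosome genes (median 0.092), 13 of 15 tricarboxylic acid cycle genes (median 0.046), 9 of 9 electron carriers (median 0.127) and 11 of 14 fatty acid oxidation genes (median 0.067). At an unadjusted p under 0.05, 5 mitochondrial ribosome genes were higher (3.46% of all genes) and 1 fatty acid oxidation gene, Cpt1a, was lower (9.40%). In HDAd-gE3 against PBS (45.4% of all genes higher) the counts were 49 of 72 (median 0.058), 9 of 15 (0.018), 7 of 9 (0.161) and 11 of 14 (0.071) for the same 4 lists. There 10 mitochondrial ribosome genes were higher at the unadjusted threshold (5.94% of all genes) and 2 lower (7.27%). In HDAd-0 against PBS (57.6% of all genes higher) the counts were 31 of 72 (median -0.022), 5 of 15 (-0.037), 4 of 9 (-0.004) and 11 of 14 (0.034). There 1 mitochondrial ribosome gene was higher at the unadjusted threshold (8.50% of all genes) and 2 lower (4.39%). Among the biogenesis regulators 7 of 16 had a higher mean in HDAd-gE3 than in HDAd-0, with Ppargc1a at 0.601 ± 0.255 and Polrmt, the mitochondrial RNA polymerase, at -0.275 ± 0.095 (limma, adjusted p = 0.376 and 0.320). Polrmt also differed by -0.469 ± 0.095 between HDAd-gE3 and PBS (adjusted p = 0.107).

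Among the 12755 genes outside the list with a mean of at least 6, 78 (0.61%) correlated above 0.9 with the mean of the 90. The 10 closest, by Pearson's r over the 9 arrays, were Acot2, a mitochondrial acyl-CoA thioesterase (0.990), Mrpl55 (0.988), Gstk1 (0.981), Gm12338 (0.980), Mrap (0.971), Car14 (0.971), Apoo (0.965), Mrpl16 (0.965), Smim4 (0.963) and 4430402I18Rik (0.958). Mrpl55 and Mrpl16 are mitochondrial ribosome proteins, Apoo is a protein of the inner membrane's cristae, Mrap is an accessory protein of the ACTH receptor and Car14 a carbonic anhydrase. Acot2 ran from 11.32 to 11.91 over the arrays and Mrap from 9.59 to 10.32.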

How the data were processed

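Per the labels' protocols, 9 pools of 3 aortas were extracted with an RNeasy kit and amplified with FL-Ovation reagents. The authors' deposited table holds log2 signals of 45101 probe sets. The submitters' processing notes name RMA, whose version was not given in the sources used here; the log2 scale was read from the values. RMA would hide a shift common to most genes. In the platform annotation 34945 probe sets name 1 gene, 932 name more and 9160 name none, and 64 are controls. Each of 18193 genes was read from its brightest single-gene probe set. Genes with only shared probe sets were not used here. Linear models were fitted to all genes and 9 arrays with limma 3.58.1 (R 4.3.3), leaving 6 residual degrees of freedom, with Benjamini-Hochberg adjustment and a threshold of 0.05; the code was tested on simulated data. With 3 arrays a side the smallest exact permutation p is 0.1, so none was used. The arrays are replicates by their labels, and the precision is limited by 3 per group. The running numbers of the titles fall in a block per group, so any effect of that order and the group cannot be told apart. Alternatives changed the scaling, the filter on dim genes, the choice of probe set, the model and the arrays used. Named genes were, per comparison and direction, the 3 with the smallest p, the complex IV isoforms, the extremes of correlation per complex, the 10 most alike other genes and up to 2 genes per list; others are marked or follow from a count. The genes, lists and tests were chosen with earlier results of these data known. Array medians ran from 6.67 to 6.77. Figures used matplotlib 3.10.9.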

Additional observations from a re-analysis of the deposited data

How the results depend on the processing

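The count of called genes among the 90 was 0 under 62 of 63 alternatives over the 3 comparisons; the exception was 1 gene, Ndufaf4, in HDAd-gE3 against PBS with array weights (-0.324, limma adjusted p = 0.045). The median difference of HDAd-gE3 from HDAd-0 was -0.025 with the 3' minus 5' covariate, where the median of all genes was -0.022. Those of HDAd-gE3 and HDAd-0 from PBS were -0.047 and -0.019 (all genes -0.009 and 0.019). The cause was not tested. Leaving out 1 array at a time gave medians from 0.010 to 0.130 for HDAd-gE3 against HDAd-0, -0.031 to 0.068 for HDAd-gE3 against PBS and -0.098 to 0.009 for HDAd-0 against PBS, with 0 genes called each time. The groups share replicate numbers 3 and 4, which no label ties to a batch. The deviations of same-numbered arrays correlated from -0.05 to 0.10 over all genes and from 0.08 to 0.43 over the 90 genes (0.08 to 0.26 for number 3, 0.22 to 0.43 for number 4), so a shared factor among the 90 genes is not excluded. HDAd-gE3 replicate 2, HDAd-0 replicate 5 and PBS replicate 1 have numbers that no other array has. A replicate block fits these arrays exactly, so its differences rest on the arrays numbered 3 and 4 only. With the block the medians were 0.057, -0.018 and -0.063 and 0 of the 90 genes were called. Over all genes it called 0, 0 and 0, against 1, 23 and 12 without it. With so few arrays left, these counts of 0 cannot show whether a shared factor matters. The mean pairwise correlation within groups was 0.48 with the probe set of largest spread, and 0.57 to 0.65 without 1 array. Of 18 named differences under 366 alternative values, 363 kept their direction and side of the threshold and 2 reversed. Both reversed with the probe set of largest spread in HDAd-gE3 against HDAd-0: Cox7c (0.017, from a probe set with a mean of 5.17) and Ndufb6 (0.062, from one with a mean of 11.76). With both HDAd-gE3 replicate 4 and HDAd-0 replicate 5 left out, an alternative chosen after seeing the data, 0 genes were called and the medians were 0.148, 0.068 and -0.081. Over these alternatives the calls among all genes ran from 0 to 10 in HDAd-gE3 against HDAd-0, 0 to 804 in HDAd-gE3 against PBS and 0 to 31 in HDAd-0 against PBS. Signals near the top of the scale and under 6 limit what can be seen of the brightest and dimmest genes.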
